A study of Mus musculus with 14 samples.

Results

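The 8 genes described here belong to the apolipoprotein L family of the mouse: Apol6, Apol7a, Apol7c, Apol8, Apol9a, Apol9b, Apol10b and Apol11b. They are the entries of the count table that carry one of these symbols, 8 of 22116 named genes, and were picked because some of them are higher after imiquimod on dorsal skin and others are known as interferon-induced. Their values in the imiquimod-dorsal and control libraries, which the choice used, are therefore given as a description with no test. The 5 further family entries of the table, Apol7b, Apol7e, Apol10a, Apol11a and Apold1, are named where they bear on a result.

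Apolipoprotein L proteins are amphipathic proteins that bind membranes and lipids. Human APOL1, carried on high-density lipoprotein, lyses trypanosomes, and human APOL3 and APOL6 are interferon-induced. In the mouse, Apol9a and Apol9b are interferon-stimulated genes with antiviral action, and APOL7C acts in type 1 conventional dendritic cells, where it disrupts phagosomes during cross-presentation. The other members are described by their values only.

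Spleen RNA of 14 female wild-type BALB/c mice aged 6 to 8 weeks was sequenced after poly(A) selection to compare models of psoriasis-like skin inflammation. Imiquimod, a Toll-like receptor 7 agonist, was applied as a 5% cream each day for 5 days, to the dorsal skin of 4 mice (imiquimod-dorsal) or to the ear of 4 mice (imiquimod-ear). IL-23, a cytokine that maintains type 17 T cells, was injected intradermally at 1 µg per ear in 4 injections over 7 days into 3 mice (IL-23-ear). The 3 control mice had petrolatum vehicle on dorsal skin and ears, although the series' design text calls them untreated; a group injected with vehicle was not analysed here. Libraries are named by group and replicate number. A p-value sets a group difference against the spread between mice of the same group, estimated over all 4 groups.

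Libraries held 28354674 to 40289411 counts over named genes. Markers of B cells, the main lymphocytes of spleen, were detected in every library, with summed levels of 3543 to 4190 CPM (TMM-scaled counts per 1e6 counts of the library) in imiquimod-dorsal, 4178 to 4634 in imiquimod-ear, 4916 to 5344 in IL-23-ear and 4950 to 5186 in control. Imiquimod-dorsal 4 stood apart in 1 respect: 11 pancreas genes summed to 480.5 CPM there, against 12.9 to 16.1 CPM in the other imiquimod-dorsal, 6.84 to 13.9 in imiquimod-ear, 10.3 to 14.7 in IL-23-ear and 9.82 to 13.2 in control libraries. Without that library the log2 fold changes of the 8 genes against control kept their direction.

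In the genome build GRCm39, 12 of the 13 family entries lie on chromosome 15 and Apold1 lies on chromosome 6. Of the 12, 11 lie within 368.785 kb, and Apol6 lies 329.221 kb before the first of them. Apol7a (chr15:77272419-77283435), Apol9a (chr15:77287989-77295335), Apol7c (chr15:77409052-77417516), Apol10b (chr15:77466832-77482796), Apol11b (chr15:77518146-77527487) and Apol8 (chr15:77630218-77641203) are annotated on the minus strand. Apol9b (chr15:77613239-77620585) and Apol6 (chr15:76905914-76943197) are on the plus strand. Apol6 overlaps the myoglobin gene Mb on the opposite strand, which the library kit cannot separate; Mb had 0 counts in 12 libraries, 1.12 CPM in imiquimod-ear 4 and 0.192 CPM in control 4.

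The promoters of the genes the results turn on are given first, to show which of them share sequence. RefSeq promoters (build GRCm38.p6, 250 bases before to 50 after the start) were found for 7 of the 8 members, all but Apol6. The core of the interferon-stimulated response element was searched on both strands as GAAA, any 2 bases and GAAA again. It was present in 5 of these 7 (Apol7c, Apol9a, Apol9b, Apol10b and Apol11b), against 3.99% of 27025 genes, and absent from the windows of Apol7a and Apol8. Some members were picked as known interferon-induced genes, and Apol9a and Apol9b hold the same stretch, so nothing is read from this count. A match is a description of letters, not of bound protein. Below, 70 bases around the match are printed 5′ to 3′ on the gene's strand, and capitals mark the matches, which lie on the other strand and so each read as TTTC, 2 bases and TTTC here. Apol9a (promoter chr15:77411031-77411330, minus strand) has overlapping matches from 59 to 44 bases before the start:
Apol9a: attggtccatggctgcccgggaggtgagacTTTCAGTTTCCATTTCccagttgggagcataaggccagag
The promoters of both listed starts of Apol9a and of Apol9b (chr15:77728822-77729121 and chr15:77728871-77729170, plus strand) hold these same 70 letters. For the first start of Apol9b they reach past the start. Apol7c (chr15:77533266-77533565, minus strand) also has overlapping matches:
Apol7c: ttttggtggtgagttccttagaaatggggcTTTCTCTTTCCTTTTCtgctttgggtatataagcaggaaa
Apol11b (chr15:77643237-77643536, minus strand) and Apol10b (chr15:77596076-77596375, minus strand) have 1 match each, and that of Apol10b lies across its start:
Apol11b: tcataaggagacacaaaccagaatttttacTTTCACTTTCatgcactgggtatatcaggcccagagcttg
Apol10b: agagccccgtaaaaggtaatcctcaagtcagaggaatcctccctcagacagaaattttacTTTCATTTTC
The promoter of Apol11a (chr15:77508019-77508318, plus strand) was identical to that of Apol11b at 298 of 300 positions. Apol8 (chr15:77756961-77757260, minus strand) has no match, and the 250 bases before its start are shown because it had the most even high level in the imiquimod-dorsal libraries:
Apol8: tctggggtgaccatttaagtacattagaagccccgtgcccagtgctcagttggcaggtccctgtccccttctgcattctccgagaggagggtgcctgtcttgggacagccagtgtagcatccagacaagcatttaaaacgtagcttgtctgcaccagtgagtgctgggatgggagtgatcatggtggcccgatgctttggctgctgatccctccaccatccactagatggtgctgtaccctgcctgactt
An erythroid GATA motif, searched as AGATAA or TGATAA on both strands, was found in 2 of the 7 (Apol10b and Apol11b) and in 21% of genes. A KLF motif, searched as CCNCNCCC on both strands, was found in 2 of the 7 (Apol9a and Apol9b) and in 51.9% of genes. Neither was found in the window of Apol8, and the 3 motifs overlapped nowhere in these promoters. Apol8 and Apol11b, which were both high after dorsal imiquimod, shared none of the 3 motifs, and their promoters were identical at 48% of aligned positions, beside 43.3% to 48.7% for Apol8 with the other family entries. The response element core of Apol11b is shared with Apol9a and Apol9b, which were low after dorsal imiquimod.

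Levels of different genes were compared as CPM per kb of the canonical transcript. In control spleens the highest members lay within a narrow range: Apol11b averaged 2.59, Apol9b 2.18, Apol8 2.03, Apol10b 1.80 and Apol9a 1.42 CPM per kb (n = 3), and each of these overlapped the next in the order. Apol7c followed at 0.495, Apol6 at 0.197 and Apol7a at 0.10 CPM per kb, and only Apol7c and Apol6 among these neighbours did not overlap. In imiquimod-dorsal spleens the order was led by Apol11b with 130 and Apol8 with 66.9 CPM per kb, overlapping each other, and the next, Apol10b, averaged 0.827 CPM per kb (n = 4). In IL-23-ear spleens Apol9b led with 2.73 and Apol9a followed with 2.61 CPM per kb, overlapping each other (n = 3).

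Apol8 and Apol11b made up nearly all family counts in imiquimod-dorsal spleens. The 8 members summed to 280.1 to 657.2 CPM in imiquimod-dorsal, 10.5 to 109.3 in imiquimod-ear, 15.8 to 22.6 in IL-23-ear and 13.9 to 28.7 CPM in control libraries. Apol8 and Apol11b held 99.3% to 99.6% of that sum in imiquimod-dorsal, 58.6% to 95.2% in imiquimod-ear, 6.15% to 36.1% in IL-23-ear and 43.7% to 53.5% in control libraries. The shares of imiquimod-dorsal lay above all others, and those of IL-23-ear lay below all others.

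**Figure D1:**
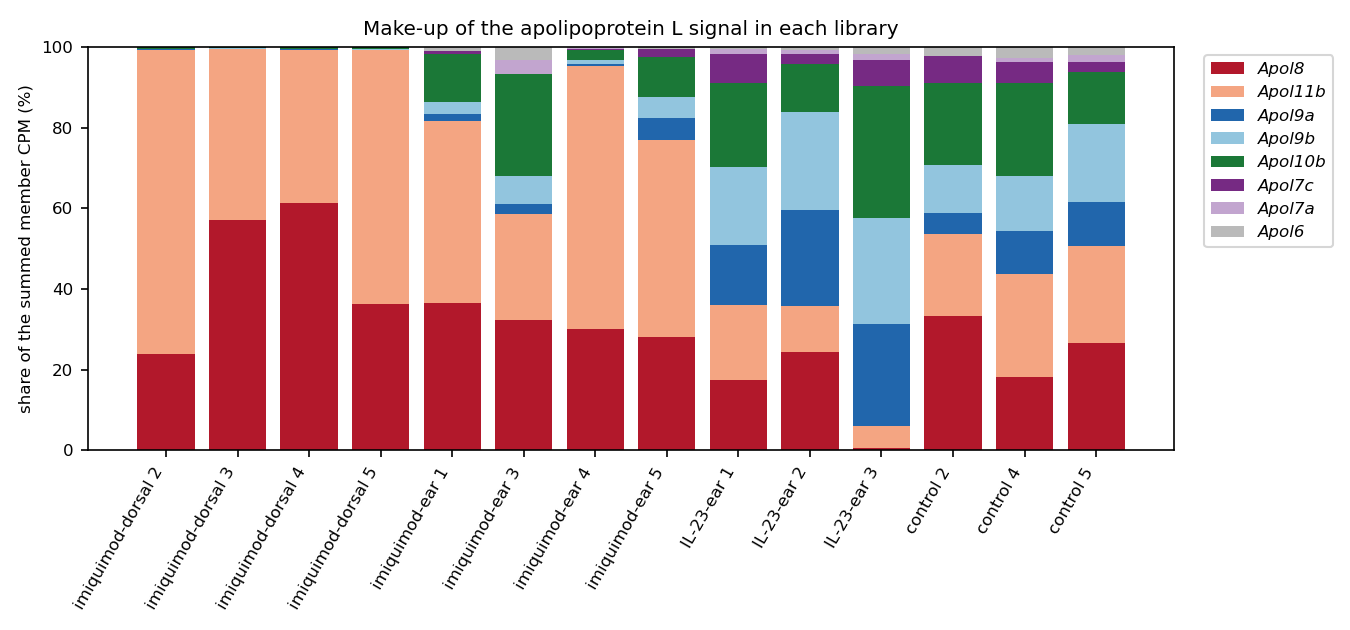
Share of the summed CPM of the 8 members (y axis, percent) that each member held in each of the 14 libraries (x axis, grouped by treatment with control at the right). Apol8 and Apol11b together fill 99.3% to 99.6% of the bars of imiquimod-dorsal, and the Apol9a and Apol9b segments fill 34.2% to 51.5% of the IL-23-ear bars against 17.2% to 30.2% of the control bars.

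After dorsal imiquimod, Apol8 and Apol11b were higher than in any control spleen, and Apol9a, Apol9b, Apol7c and Apol10b were lower. Apol8 had 157.8, 208.3, 172.0 and 183.5 CPM in imiquimod-dorsal libraries 2, 3, 4 and 5, against 4.65, 5.25 and 6.53 CPM in control libraries 2, 4 and 5. All 4 imiquimod-dorsal libraries lay far above the control libraries and close to each other. The log2 fold change was 5.04 ± 0.88 (SE).
Apol11b had 495.2, 154.9, 106.3 and 318.5 CPM in imiquimod-dorsal libraries 2 to 5, against 2.81, 7.30 and 5.93 CPM in control libraries 2, 4 and 5. The groups did not overlap, but the imiquimod-dorsal libraries spread widely. The ratio of Apol11b to Apol8 was 3.14 in imiquimod-dorsal 2, 0.744 in imiquimod-dorsal 3, 0.618 in imiquimod-dorsal 4 and 1.74 in imiquimod-dorsal 5, so which of the pair was higher differed between mice. The log2 fold change of Apol11b against control was 5.66 ± 1.09 (SE).

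The interferon-stimulated pair was lower. Apol9a had 0.199, 0.0640, 0.130 and 0 CPM in imiquimod-dorsal libraries 2 to 5, against 0.728, 3.10 and 2.69 CPM in control libraries 2, 4 and 5. Apol9b had 0.766, 0.192, 0.455 and 0.380 CPM in the same imiquimod-dorsal libraries, against 1.66, 3.90 and 4.74 CPM in the control libraries. Both genes were lower in every imiquimod-dorsal library than in any control library, and for Apol9a the imiquimod-dorsal values rest on 13 counts in all. The log2 fold changes were -4.39 ± 0.73 (SE) for Apol9a and -2.91 ± 0.42 (SE) for Apol9b.
Apol7c had 0.114 CPM in imiquimod-dorsal 2 and 0 counts in the other 3 imiquimod-dorsal libraries, against 0.935, 1.504 and 0.622 CPM in control libraries 2, 4 and 5. A count of 0 allows up to 3 counts, or 0.0754 to 0.0976 CPM depending on the library, a floor that covers counting error only. The groups did not overlap, and the fitted log2 fold change of -4.90 ± 1.01 (SE) rests on 4 counts in the imiquimod-dorsal libraries. Without imiquimod-dorsal 2 all of these libraries are at 0 and the fitted value was -8.17, which depends on the prior count and is no bound. Apol10b averaged 1.93 ± 0.99 CPM in imiquimod-dorsal (SD, n = 4) and 4.21 ± 2.10 CPM in control (SD, n = 3), with a highest imiquimod-dorsal value of 2.82 and a lowest control value of 2.83 CPM. Apol6 (0.212 ± 0.128 CPM in imiquimod-dorsal, 0.533 ± 0.229 CPM in control) and Apol7a (at 0 in 3 of 4 imiquimod-dorsal and 1 of 3 control libraries) overlapped between these groups.

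Thus 2 of 8 members were higher without overlap and 4 were lower. Over all 15159 genes tested, 33.0% were higher and 28.1% lower without overlap, and since this contrast chose the members nothing is read from their count. In the same comparison all 30 erythroid genes were called higher (edgeR; median log2 fold change 4.02), and their summed level was 91290 to 152300 CPM in imiquimod-dorsal against 12870 to 39760 CPM in control libraries. The erythroid regulator Klf1 had 310.0 to 461.2 CPM in imiquimod-dorsal and 10.3 to 35.3 CPM in control libraries. Among 29 genes of the type I interferon response, 28 were called lower (edgeR; median log2 fold change -2.83, beside -0.001 for all genes), and so were 19 of 20 genes of the interferon gamma response. Of 15 neutrophil genes 15 rose, and of 10 T cell genes 10 fell. In whole-spleen RNA, fewer cells of a type and less RNA per cell cannot be told apart, and the part of these markers in the members' values was not tested.

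**Figure D2:**
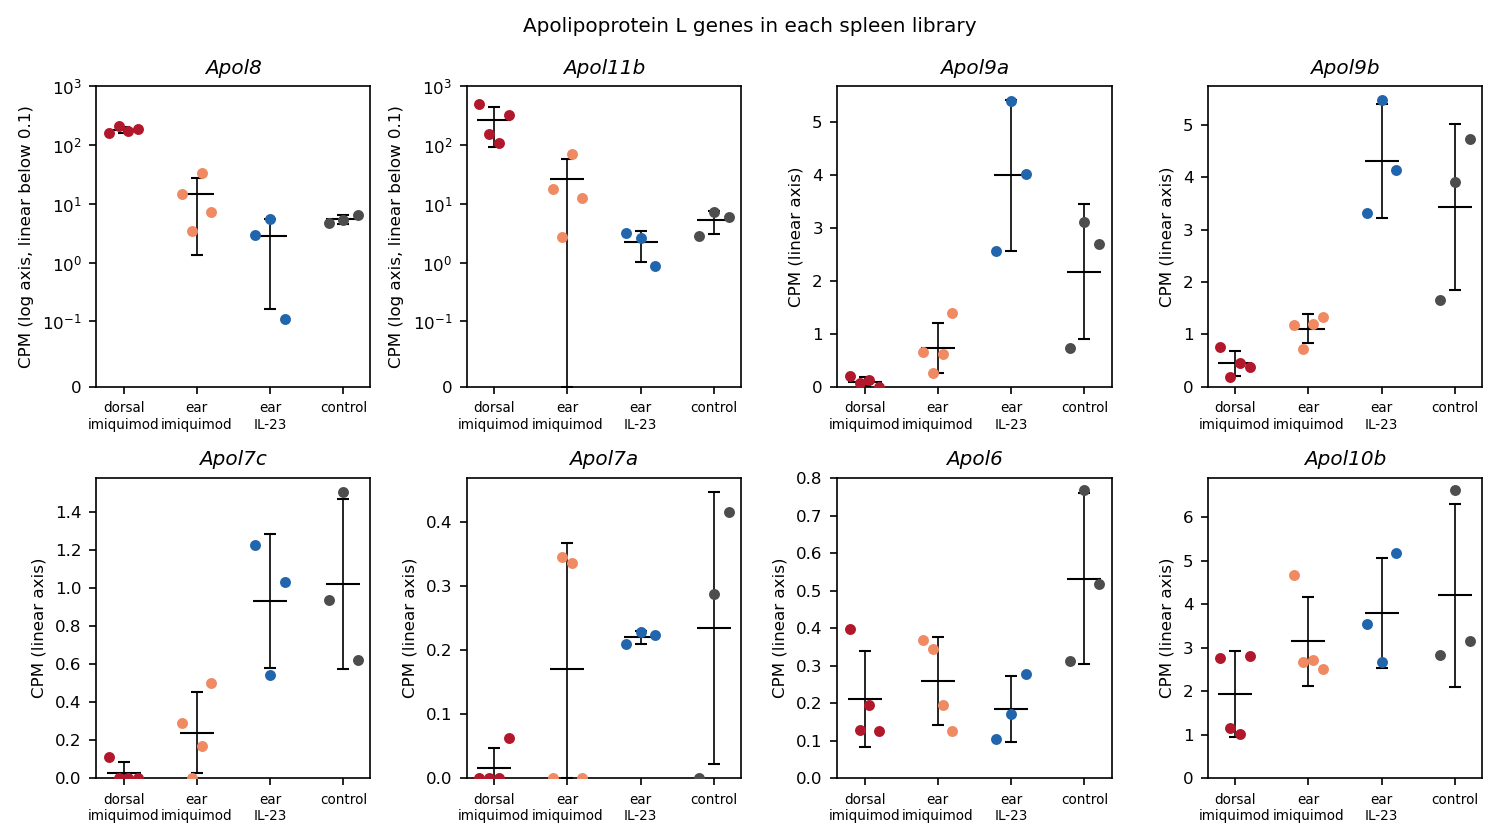
CPM of each member in each library (points), by group, with mean and SD (bars, drawn down to 0 where the SD exceeds the mean); the axes of Apol8 and Apol11b are logarithmic above 0.1 CPM and the others linear. Apol8 lies at 157.8 to 208.3 CPM in imiquimod-dorsal and 4.65 to 6.53 CPM in control. The means of Apol9a and Apol9b are lowest in imiquimod-dorsal and highest in IL-23-ear, where the points of both genes overlap those of control.

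Imiquimod on the ear was compared with the same control libraries, which this comparison shares with the one above. Apol9b was the only member to pass the test, and it fell. Apol9b had 1.19, 0.718, 1.20 and 1.33 CPM in imiquimod-ear libraries 1, 3, 4 and 5, against 1.66, 3.90 and 4.74 CPM in control libraries 2, 4 and 5. Every imiquimod-ear value lay below every control value. The log2 fold change was -1.62 ± 0.39 (SE; edgeR's quasi-likelihood test, adjusted p = 0.0115, lower in 4 of 4 imiquimod-ear libraries).
Of the 8 members 1 was called, where 21.2% of all genes were called (6.98% lower), and 4 members had an unadjusted p under 0.05. The call on Apol9b rests on control 4: without that library the adjusted p was 0.0536 and no member was called. Without imiquimod-ear 5, 3 members were called (Apol7c, Apol9a and Apol9b), and without control 2, 2 members (Apol9a and Apol9b).

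The paired gene Apol9a had 0.660, 0.259, 0.616 and 1.38 CPM in imiquimod-ear libraries 1, 3, 4 and 5, and its highest value exceeded the 0.728 CPM of control 2. Its log2 fold change of -1.56 ± 0.59 (SE) missed the threshold (edgeR, adjusted p = 0.0753). Apol7c, the dendritic cell member, had 0.291, 0, 0.168 and 0.503 CPM in the imiquimod-ear libraries, all below the lowest control value of 0.622 CPM, and likewise missed it (log2 fold change -2.04 ± 0.76, SE; edgeR, adjusted p = 0.0716). The coding sequences of Apol9a and Apol9b are identical at 916 of 930 positions, and 28.1% of 150-base windows of the Apol9a transcript and 23.7% of those of Apol9b also occur in the other, so reads may have been split between them. With their counts summed, the pair fell by 1.60 on the log2 scale (edgeR, adjusted p = 0.0215).

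Apol8 and Apol11b varied widely between imiquimod-ear mice. Apol8 had 14.3, 3.39, 32.8 and 7.12 CPM in imiquimod-ear libraries 1, 3, 4 and 5, and Apol11b had 17.9, 2.76, 71.3 and 12.3 CPM. Imiquimod-ear 4 was highest and imiquimod-ear 3 lowest for both genes, and the groups overlapped with control. Their log2 fold changes of 1.39 ± 0.77 (SE; adjusted p = 0.222) for Apol8 and 2.29 ± 0.95 (SE; adjusted p = 0.109) for Apol11b did not pass edgeR's test. DESeq2 called Apol11b higher (log2 fold change 2.25, adjusted p = 0.0399), but not Apol8. Without imiquimod-ear 4 the edgeR log2 fold changes were 0.60 for Apol8 and 1.05 for Apol11b. Summed erythroid levels were likewise highest in imiquimod-ear 4, at 54990 CPM, and lowest in imiquimod-ear 3, at 8500 CPM. Klf1 had 42.1, 12.0, 80.9 and 18.2 CPM in imiquimod-ear libraries 1, 3, 4 and 5. Among control libraries the erythroid sum was highest in control 2 (39760 CPM), where Klf1 (10.3 CPM) and Apol8 (4.65 CPM) were lowest. Neutrophil sums had the same extremes, at 847.0 CPM in imiquimod-ear 4 and 225.1 CPM in imiquimod-ear 3. Of 15 neutrophil genes 9 were called higher in imiquimod-ear against control (edgeR), and 5 with no filter. The part of either list in the members' values was not tested. Of the 30 erythroid genes 0 passed the test in this comparison by edgeR or DESeq2, and 1 had an unadjusted p under 0.05 in edgeR (median log2 fold change 0.86). Apol10b, Apol6 and Apol7a overlapped with control, with log2 fold changes of -0.41 ± 0.41, -1.02 ± 0.53 and -0.48 ± 1.10 (SE) and adjusted p of 0.497, 0.183 and 0.787 in edgeR.

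Interferon genes fell as well. Among 29 genes of the type I interferon response, 25 were called lower and 0 higher (edgeR; median log2 fold change -1.62, beside 0.02 for all genes). Among them Ddx60, an RNA helicase, had a log2 fold change of -1.87 ± 0.29 (SE; edgeR, adjusted p = 0.00254) and Stat2, which carries the type I interferon signal, -0.97 ± 0.17 (SE; adjusted p = 0.00353). Of the 20 interferon gamma genes 11 were called lower. These counts were 14 and 1 without control 4, and 7 interferon gamma genes fell without imiquimod-ear 3.

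Between the imiquimod sites, imiquimod-ear spleens had less Apol8 and Apol11b than imiquimod-dorsal spleens without overlap. The log2 fold changes of imiquimod-ear over imiquimod-dorsal were -3.65 ± 0.72 (SE) for Apol8 and -3.37 ± 0.85 (SE) for Apol11b. Apol9a was higher without overlap in imiquimod-ear, at 0.259 to 1.38 CPM against 0 to 0.199 CPM in imiquimod-dorsal, with a log2 fold change of 2.83 ± 0.74 (SE). Apol9b (1.29 ± 0.41, SE) and Apol7c (2.86 ± 1.07, SE) had positive log2 fold changes with overlapping groups, and that of Apol7c was 6.13, no bound either, without imiquimod-dorsal 2. These values, 1 member higher and 2 lower without overlap beside 19.8% and 23.1% of all genes, rest on the libraries that chose the members and were not tested.

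IL-23 injected into the ear gave no called member against the same control libraries. With 0 of 8 members called beside 0.0528% of all genes, 1 member (Apol6) had an unadjusted p under 0.05, and DESeq2 called 0 members. Apol6 had 0.104, 0.171 and 0.278 CPM in IL-23-ear libraries 1, 2 and 3, against 0.312, 0.768 and 0.518 CPM in control libraries 2, 4 and 5. These groups did not overlap, and the log2 fold change was -1.51 ± 0.59 (SE; edgeR, adjusted p = 0.484).
Apol9a had 2.56, 5.39 and 4.01 CPM and Apol9b 3.31, 5.48 and 4.15 CPM in IL-23-ear libraries 1, 2 and 3, both overlapping the control values. Their log2 fold changes were 0.88 ± 0.60 (SE; adjusted p = 0.751) and 0.33 ± 0.41 (SE; adjusted p = 0.877) in edgeR. Apol8 had 2.97, 5.51 and 0.111 CPM in IL-23-ear libraries, and IL-23-ear 3, with 4 counts, was lowest of all 14 libraries. Apol11b was lowest in the same library, at 0.863 CPM beside 3.21 and 2.60 CPM in IL-23-ear 1 and 2. The log2 fold changes of -0.94 ± 0.87 (SE; adjusted p = 0.825) for Apol8 and -1.25 ± 1.08 (SE; adjusted p = 0.81) for Apol11b did not pass edgeR's test. Klf1 was also lowest in IL-23-ear 3, at 3.51 CPM beside 11.7 and 18.6 CPM in IL-23-ear 1 and 2.

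IL-23-ear against imiquimod-ear shares no library with the comparison that chose the members. The test is not fully apart from that choice, since the spread and the gene filter were taken from all 14 libraries in 1 fit. IL-23-ear and imiquimod-ear differ in agent, in route and in days of treatment. Here the interferon-stimulated pair Apol9a and Apol9b was higher in IL-23-ear, and Apol11b was lower. Apol9a had 2.56, 5.39 and 4.01 CPM in IL-23-ear libraries 1, 2 and 3, against 0.660, 0.259, 0.616 and 1.38 CPM in imiquimod-ear libraries 1, 3, 4 and 5. Apol9b had 3.31, 5.48 and 4.15 CPM in IL-23-ear, against 1.19, 0.718, 1.20 and 1.33 CPM in imiquimod-ear. For both genes the lowest IL-23-ear library lay above the highest imiquimod-ear library. The log2 fold changes were 2.43 ± 0.59 (SE; edgeR, adjusted p = 0.0145) for Apol9a and 1.95 ± 0.39 (SE; edgeR, adjusted p = 0.00567) for Apol9b, both higher in 3 of 3 IL-23-ear libraries.
Apol11b had 3.21, 2.60 and 0.863 CPM in IL-23-ear libraries, against 17.9, 2.76, 71.3 and 12.3 CPM in imiquimod-ear libraries. The groups overlapped only through imiquimod-ear 3. Its log2 fold change was -3.54 ± 1.04 (SE; edgeR, adjusted p = 0.0385).

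These 3 of 8 members called stood beside 17.3% of all genes called in this comparison, 7.06% higher and 10.2% lower, and 5 members had an unadjusted p under 0.05. The call on Apol9b held without any 1 library, with adjusted p of at most 0.0263. That on Apol9a was lost without IL-23-ear 2 (adjusted p = 0.0534), when Apol9b alone remained called. That on Apol11b was lost without imiquimod-ear 1, imiquimod-ear 4, any IL-23-ear or any control library, with adjusted p between 0.0509 and 0.137, and without imiquimod-ear 4 its log2 fold change was -2.30.

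Of the members that were not called, Apol8 and Apol7c had the smallest adjusted p. Apol7c had 1.23, 0.542 and 1.03 CPM in IL-23-ear libraries, all above the highest imiquimod-ear value of 0.503 CPM, and the log2 fold change was 1.92 ± 0.76 (SE; edgeR, adjusted p = 0.096). Without imiquimod-ear 5 it passed (adjusted p = 0.0321). Apol8 had 2.97, 5.51 and 0.111 CPM in IL-23-ear and 3.39 to 32.8 CPM in imiquimod-ear, which overlapped, with a log2 fold change of -2.33 ± 0.83 (SE; edgeR, adjusted p = 0.0738). DESeq2 called it lower (-2.31, adjusted p = 0.0425), and without imiquimod-ear 4 the edgeR value was -1.54. Apol10b (0.27 ± 0.41, SE; adjusted p = 0.681), Apol6 (-0.48 ± 0.58, SE; adjusted p = 0.601) and Apol7a (0.39 ± 1.10, SE; adjusted p = 0.833) overlapped between the groups.

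**Figure D3:**
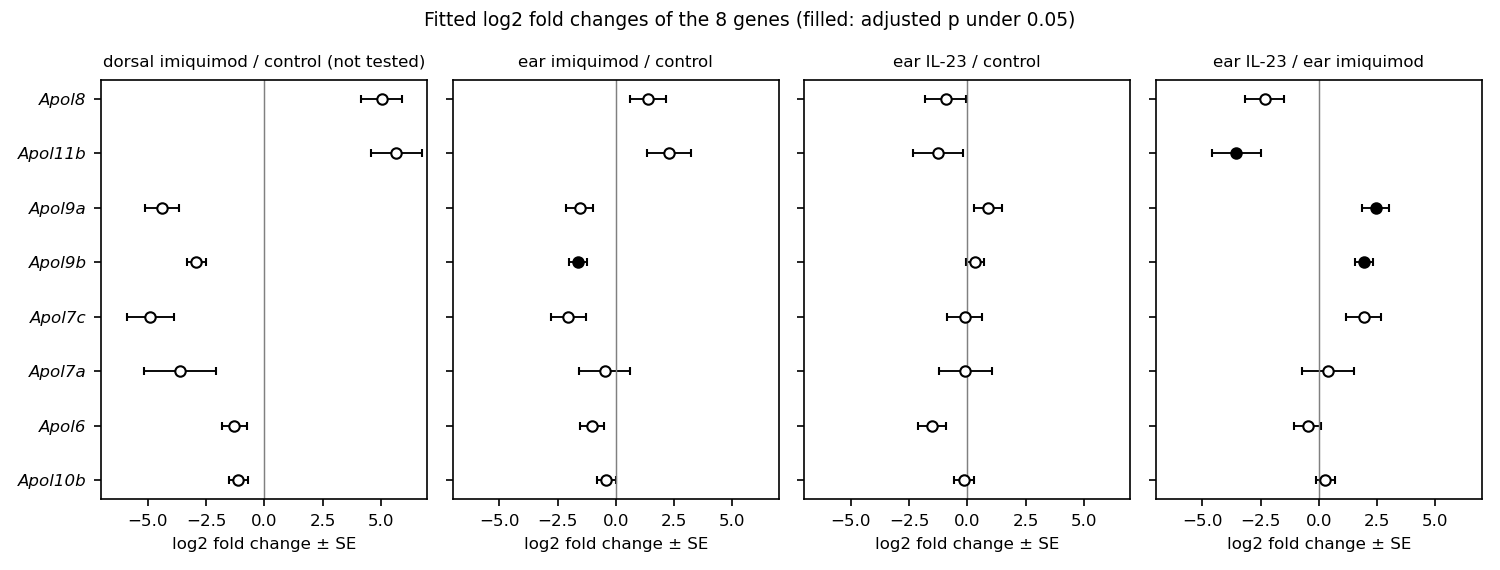
Fitted log2 fold changes (x axis, with SE bars) of the 8 members (rows) in 4 comparisons (panels); filled points have an adjusted p under 0.05 and the first panel was not tested. Apol9b is filled in imiquimod-ear against control at -1.62, and Apol9a, Apol9b and Apol11b are filled in IL-23-ear against imiquimod-ear at 2.43, 1.95 and -3.54.

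The interferon genes were also higher in IL-23-ear than in imiquimod-ear. Among 29 genes of the type I interferon response, 27 were called higher and 0 lower (edgeR; median log2 fold change 2.02, beside -0.02 for all genes). Ddx60 had a log2 fold change of 2.17 ± 0.29 (SE; edgeR, adjusted p = 0.00115) and Bst2, the antiviral tetherin, 1.83 ± 0.25 (SE; edgeR, adjusted p = 0.00148). Of the 20 interferon gamma genes 10 were called higher. In IL-23-ear against control, edgeR called 0 of the 29 type I and 0 of the 20 interferon gamma genes in either direction. Type I interferon genes summed to 4845 to 8519 CPM in IL-23-ear, 1459 to 2595 CPM in imiquimod-ear and 3181 to 6696 CPM in control libraries.
Erythroid genes had a median log2 fold change of -1.70, and 2 of 30 fell: Tfrc, the transferrin receptor (-1.19 ± 0.37, SE; edgeR, adjusted p = 0.0447), and Sptb, erythroid spectrin (-2.18 ± 0.67, SE; edgeR, adjusted p = 0.0453). That count moved between 0 and 9 when single libraries were left out, being 9 without imiquimod-ear 3, 8 without imiquimod-ear 5 and 0 without any other library except IL-23-ear 2. DESeq2 called 19. The erythroid sums were 3773 to 15140 CPM in IL-23-ear and 8500 to 54990 CPM in imiquimod-ear libraries. The part of these genes in the values of Apol9a, Apol9b and Apol11b was not tested.

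For Apol7c, the markers of type 1 conventional dendritic cells were set beside it. Against control, Xcr1 and Clec9a, which define these cells, had log2 fold changes of -1.36 ± 0.24 and -1.80 ± 0.19 (SE) in imiquimod-dorsal (edgeR, adjusted p = 0.000293 and 5.04e-06), and -0.44 ± 0.24 and -0.50 ± 0.19 (SE) in imiquimod-ear (adjusted p = 0.201 and 0.0744). Of 15 markers 2 rose and 10 fell in imiquimod-dorsal against control. In imiquimod-ear against control 1 rose and 2 fell, and over the alternatives the count lower ran from 0 to 8. In IL-23-ear against imiquimod-ear 3 rose and 1 fell, and Xcr1 and Clec9a did not pass (adjusted p = 0.311 and 0.338). The marker count higher in IL-23-ear against imiquimod-ear was 1 without imiquimod-ear 3, imiquimod-ear 4, IL-23-ear 2 or IL-23-ear 3. It was also 1 with the replicate block and with only the 2 groups compared. The count lower was 2 without imiquimod-ear 4 or imiquimod-ear 5. The marker that fell there and rose with imiquimod, Cd24a, is also an erythroid gene. Cd8a, 1 of the 3 that rose there (log2 fold change 1.06 ± 0.24 SE, edgeR adjusted p = 0.013), is also a T cell gene. Of the 10 T cell genes 9 were called higher in that comparison. The part of the markers in the level of Apol7c was not tested.

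The genes most like each member were found by Pearson's r of log2 CPM over the 14 libraries among 12202 genes, as a description; the imiquimod-dorsal libraries stood apart and carry much of each r. Among the genes most like Apol8 were Btnl10 (0.998) and Ahsp (0.996), which encodes a chaperone of alpha globin. After group means were subtracted, Btnl10 (0.989) and Hemgn (0.985) were among the nearest to Apol8. Apol11b was most like Slc2a4 (0.976), Samd11 (0.972) and Dmtn (0.967), which encodes a red cell membrane skeleton protein, and Mief2 (0.976) was the nearest within groups.
Apol9a was most like Ifit1bl1 (0.976), Jaml (0.971) and Slfn2 (0.970), and Apol9b most like Xaf1 (0.979), Slfn2 (0.976) and Zbp1 (0.975), a sensor of nucleic acids. Within groups the nearest were Ifit1bl1 (0.908), Enpp4 (0.889) and Amer1 (0.877) for Apol9a, and Fpr1 (0.961), Atf3 (0.900) and Cd300e (0.881) for Apol9b, so the neighbours of Apol9b changed. Apol10b was most like Irf1 (0.882), an interferon-induced transcription factor, and within groups most like Tvp23b (0.905), Pdp2 (0.882) and Nlrc5 (0.863), the activator of MHC class I genes. Apol7c was most like Ppm1h (0.972), Apol6 like Dhx33 (0.872) and Apol7a like Zfp68 (0.807), where low counts limit the reading. Between members, after group means were subtracted, r was 0.688 for Apol8 with Apol11b and 0.772 for Apol9a with Apol9b. It was 0.112 for Apol8 with Apol9a, 0.172 for Apol8 with Apol9b, 0.313 for Apol11b with Apol9a and 0.501 for Apol11b with Apol9b. Other pairs also reached such values, as 0.558 for Apol6 with Apol10b, 0.549 for Apol7c with Apol9a and 0.511 for Apol7c with Apol11b. Apol11b with the further family entry Apol10a had 0.898. Reads may have been split between Apol9a and Apol9b, which limits the reading of their r.

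**Figure D4:**
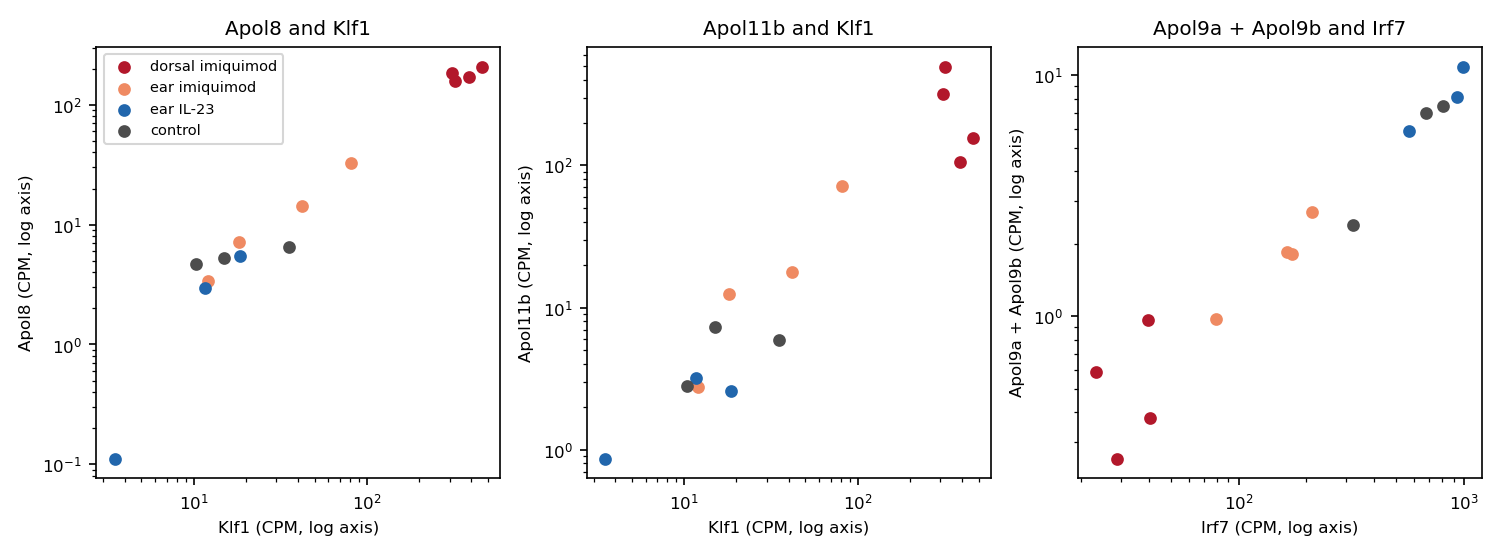
CPM of Apol8 and of Apol11b against Klf1, and of Apol9a and Apol9b summed against Irf7, in each of the 14 libraries (points, coloured by group; all axes logarithmic). The imiquimod-dorsal libraries have Klf1 at 310.0 to 461.2 CPM with Apol8 at 157.8 to 208.3 CPM, and the IL-23-ear libraries have Irf7 at 569.5 to 992.3 CPM with summed Apol9 levels of 5.87 to 10.9 CPM.

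By group means, the interferon regulator Irf7 had the same order as Apol9a and Apol9b: imiquimod-dorsal lowest, then imiquimod-ear, control and IL-23-ear. IL-23-ear overlapped control for each of these genes. None passed edgeR's test there (adjusted p = 0.805 for Irf7, 0.751 for Apol9a and 0.877 for Apol9b). Summed T cell levels had this order too, at 232.9 to 284.4, 688.2 to 1214, 925.6 to 1346 and 1399 to 1569 CPM. Irf7 had 23.3 to 40.5 CPM in imiquimod-dorsal, 79.1 to 211.2 in imiquimod-ear, 569.5 to 992.3 in IL-23-ear and 321.9 to 810.8 CPM in control libraries. The sum of Apol9a and Apol9b was 0.256 to 0.965 CPM in imiquimod-dorsal, 0.977 to 2.72 in imiquimod-ear, 5.87 to 10.9 in IL-23-ear and 2.39 to 7.43 CPM in control libraries. In control 2 both Irf7 (321.9 CPM) and the Apol9 sum (2.39 CPM) were the lowest of the control libraries, and that sum lay below the 2.72 CPM of imiquimod-ear 5.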

How the data were processed

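Poly(A) RNA of 14 spleens was sequenced with a kit that marks no strand and paired reads of 150 bases, per the labels' protocols. The deposited table holds raw read counts per gene. The tools fastp 0.23.2, HISAT2 2.2.1, featureCounts 2.0.3, StringTie 2.2.1 and DESeq2 1.38.3 and the build GRCm39 are named without roles, per the submitters' processing notes. The treatment of reads with more than 1 match is not given in the sources used here. The table had 22740 entries, and 624 without an Ensembl ID (0.484% to 0.674% of counts) were left out. Gene positions are from GENCODE mouse release 39, which held 22101 of the 22116 IDs kept.

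The test was that of edgeR 4.0.16 under R 4.3.3 (robust quasi-likelihood F test, TMM scaling, filterByExpr with a minimum count of 10). All 14 libraries entered 1 fit of 4 groups (10 residual degrees of freedom, biological coefficient of variation 18.7%). P-values were adjusted after Benjamini and Hochberg over 15159 genes, which included all 8 members, with a threshold of 0.05. CPM are TMM-scaled, and log2 CPM used a prior count of 2. Library totals were 35024011 to 40289411 in imiquimod-dorsal, 34551193 to 37402120 in imiquimod-ear, 33888595 to 35456180 in IL-23-ear and 28354674 to 35086665 in control. Among counts of 1 to 10, 58.2% to 60.9% were even, against 49.4% to 50.4% of higher counts, so low counts may not be single fragments. No replicates were close enough to be 1 library deposited again (chi-square per degree of freedom 23.1 to 136). The fit was tested on simulated data.

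The members, gene lists and named genes were chosen with earlier results of these data known. The text names all members, other family entries, the 2 called genes of a list with the smallest adjusted p, the 3 genes most like a member where mean log2 CPM is 1 or more, and Irf7, Klf1, Tfrc, Xcr1 and Clec9a. Some genes that this rule names are not reported here. Alternatives were DESeq2 1.42.0, RLE size factors, no filter, only the 2 groups compared, 265 haemoglobin and immunoglobulin genes taken out, a replicate block, similar copies summed, and each library left out. For lists, Apol7e and Apol10a, and for bounds against groups at 0 without a library, these were added after the data were seen.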

Additional observations from a re-analysis of the deposited data

Results flagged for a closer look

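In 25 sets of 4 libraries (a family gene in imiquimod-dorsal or imiquimod-ear), 5 had 1 library far from the other 3 by Dixon's criterion (a gap above 0.829 of the range). Chance flags about 1 in 20 such sets, but the 5 are not read against it: in 2 of them 3 libraries are at 0, so any count is far from the rest, and 3 use imiquimod-dorsal libraries, whose values chose the members. Apol10b in imiquimod-ear 1 was 4.68 CPM, beside 2.52 to 2.72 CPM in the other imiquimod-ear libraries. Apol10a in imiquimod-ear 4 was 1.71 CPM, beside 0.172 to 0.423 CPM in the others; Apol8 and Apol11b were also highest in that library. Apol7c in imiquimod-dorsal 2 was 0.114 CPM, on 4 counts, with 0 in the others. Apol7a in imiquimod-dorsal 5 was 0.0633 CPM, on 2 counts, with 0 in the others. Apol7b in imiquimod-dorsal 3 was 0.224 CPM, on 7 counts, beside 0.0851 to 0.0976 CPM in the others.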

How the results depend on the processing

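The 8 members' fold changes in 5 comparisons and 3 counts of calls were recomputed under 7 other settings and without each library. In the tested comparisons a single-gene value counted as kept if its direction and side of the threshold held. In the untested comparisons with imiquimod-dorsal it counted as kept if direction held and the shift stayed within the replicate spread. By these rules 782 values were kept. Of the others, 14 lost and 13 gained a call, 7 moved by more than the replicate spread and 17 changed sign. For imiquimod-ear against control the members called, 1 in the reported fit, were 4 by DESeq2 (Apol7c, Apol9a and Apol9b lower, Apol11b higher), 4 with similar copies summed (2 of 6 summed rows, each standing for 2 members), 0 with the replicate block and 0 to 3 with 1 library left out. For IL-23-ear against imiquimod-ear they were 5 with copies summed (3 of 6 rows; 3 members reported) and 1 to 4 with 1 library left out. The call on Apol11b there was also lost with no filter, with only 2 groups and with the block (adjusted p 0.0576, 0.103 and 0.0916). Signs changed for genes that were not called or not tested. With copies summed, Apol10b with Apol10a had log2 fold changes of 1.23 in imiquimod-dorsal against control and -1.42 in imiquimod-ear against imiquimod-dorsal, since the counts of Apol10a were added; Apol7a and Apol7c in IL-23-ear against control became 0.082 (summed) and 1.41 and 0.27 (block). With 1 library left out, ranges that crossed 0 were, in IL-23-ear against control, Apol7a -0.69 to 0.66, Apol7c -0.39 to 0.25, Apol9b -0.018 to 0.62 and Apol10b -0.44 to 0.33. In imiquimod-ear against control they were Apol7a -1.11 to 0.25 and Apol10b -0.70 to 0.034, and in IL-23-ear against imiquimod-ear Apol7a -0.009 to 1.01. The cause was not tested.

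Same-numbered libraries showed no strong shared deviation: r between their deviations was -0.241 to 0.183 over 13 pairs, 1 over 0.1. Of 14 libraries 2 were nearest to their own number. With so few libraries per group, these values cannot decide whether the numbers pair the mice. The replicate block, with 6 residual degrees of freedom, left 311 genes called in imiquimod-ear against control (3219 without), 1261 in IL-23-ear against imiquimod-ear (2623) and 0 in IL-23-ear against control (8). With only 2 groups in the fit the first 2 counts were 1126 and 1247, and IL-23-ear against control had 132 calls by DESeq2 and 0 with RLE. With the block, 5 type I and 0 interferon gamma genes fell in imiquimod-ear against control. Apol6, Apol7a, Apol7c and, in imiquimod-dorsal, Apol9a rest on at most 47 counts per library, which limits their fold changes.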

Other observations

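The further family entries differed in their levels. Apol10a, a neighbour of Apol11a, had 14.9, 5.70, 4.16 and 8.20 CPM in imiquimod-dorsal libraries 2 to 5, 0.423, 0.172, 1.71 and 0.327 CPM in imiquimod-ear libraries 1, 3, 4 and 5, 0 counts in all 3 IL-23-ear libraries and 0.104 to 0.160 CPM in control libraries. Pooled levels were at least 23.6-fold higher in imiquimod-ear than the floor of IL-23-ear (3 counts over the group), but 61 of their 96 counts are from imiquimod-ear 4, and without it the bound was 11.3-fold. The difference was called (edgeR, adjusted p = 0.014); with only these 2 groups in the fit the adjusted p was 0.0584. Apol11a had 0.599, 1.22, 0.488 and 0.285 CPM in imiquimod-dorsal libraries 2 to 5 and 0 counts in the other 10 libraries. That is at least 31.8-fold above the floor of imiquimod-ear, 23.5-fold above that of IL-23-ear and 23.3-fold above that of control, by the same floor. Of the 83 counts of Apol11a, 38 are from imiquimod-dorsal 3, and without that library the bounds were 22.8-fold, 16.8-fold and 16.7-fold. The coding sequences of Apol11a and Apol11b are identical at 93.5% of aligned positions. Of 2245 windows of 150 bases of the Apol11a transcript, 0 occur in another gene.

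Apol7e, a relative of the dendritic cell member Apol7c, was lower in imiquimod-ear than in control and higher in IL-23-ear than in imiquimod-ear. It had 1.80 to 2.62 CPM in IL-23-ear, against 0.672 to 1.35 CPM in imiquimod-ear, without overlap (log2 fold change 0.96 ± 0.26, SE; edgeR, adjusted p = 0.0252). Against control, at 1.82 to 2.43 CPM, the log2 fold change of imiquimod-ear was -0.92 ± 0.26 (SE; edgeR, adjusted p = 0.0253). The first call was lost without imiquimod-ear 1 or 4 or IL-23-ear 1 or 3 (adjusted p 0.0549 to 0.114) and the second without imiquimod-ear 1 or 4 or control 4 (0.0575 to 0.104). Both were also lost with only the 2 groups compared (0.0778 and 0.0737) and with the replicate block (0.0775 each). Apol7b and Apol7e share 98.9% of coding positions, and 61.7% of 150-base windows of Apol7e occur in another gene. Apol7b had 0.0851 to 0.224 CPM in imiquimod-dorsal, 0.420 to 0.981 in imiquimod-ear, 1.14 to 1.44 in IL-23-ear and 0.624 to 1.28 CPM in control libraries. Apold1 had 1.74 to 2.67 CPM in imiquimod-dorsal, 0.690 to 1.71 in imiquimod-ear, 0.599 to 0.966 in IL-23-ear and 0.803 to 1.56 CPM in control libraries.

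Apolipoproteins of other families and lipoprotein partners were measured too. Of 16 tested, 1 rose and 1 fell in IL-23-ear against imiquimod-ear. Apod, a lipocalin, had a log2 fold change of 1.46 ± 0.23 (SE; edgeR, adjusted p = 0.00197), and Apoo, a mitochondrial protein, -0.66 ± 0.18 (SE; edgeR, adjusted p = 0.026). In imiquimod-ear against control 2 rose and 1 fell, where Apod had -0.98 ± 0.23 (SE; adjusted p = 0.0108) and Apoo 0.81 ± 0.18 (SE; adjusted p = 0.0082). In IL-23-ear against control 0 of 16 were called by edgeR, where 1 had an unadjusted p under 0.05, and DESeq2 called 0 of the 10 to which it gave an adjusted p.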
